A study of Homo sapiens with 16 samples.

Results

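The response to HMBA in cells carrying an shRNA against NELFE (shNELFE) was described over all genes in 5 of the 16 RNA-seq libraries of a study in HCT116 cells, an established line from a human colorectal carcinoma. The libraries with HMBA were shNELFE HMBA replicate 2, given HMBA alone, and shNELFE EPZ-5676+HMBA replicates 1 and 2, given both compounds. The libraries without HMBA were shNELFE DMSO replicate 2, given solvent, and shNELFE EPZ-5676 replicate 2. All 5 carry the NELFE shRNA, and EPZ-5676, an inhibitor of the histone methyltransferase DOT1L also called pinometostat, is present on both sides. The study crossed 2 shRNA labels with 4 treatments in 2 libraries per group. Doses and times are not in the labels. Nothing states that libraries came from separate cultures, nor how many shRNAs or clones were used, so the p-values are scaled to a spread among samples that may be technical.

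The 5 libraries were chosen from their measured profiles. Pearson's r between libraries, taken over log2 CPM (counts scaled to the library total) of genes, which are no replicates of each other, was 0.938 to 0.991 among the 5. It was 0.742 to 0.800 between the 5 and the 3 other libraries labelled shNELFE, which were left out. On unscaled totals, NELFE stood at 16.1, 10.5 and 14.2 CPM in the libraries with HMBA and at 20.2 and 24.1 CPM in those without. The 3 libraries left out held 82.1 to 145 CPM of NELFE, and the 4 control shRNA (shCTL) libraries numbered 2 held 64.8 to 90.1 CPM. HEXIM1 was 351, 274 and 365 CPM with HMBA and 74.7 and 74.4 CPM without it, and 40.8 to 66.9 CPM in the 3 left out, of which 1 is labelled HMBA. These values chose the libraries and are given with no test. Since the choice favours libraries that resemble each other, each adjusted p below scales an effect against the spread of these 5 libraries only. With all 8 libraries labelled shNELFE in the fit, edgeR called 0 genes, with 1196 at an unadjusted p under 0.05, and 0 again with the replicate number as a block (1873).

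HMBA, hexamethylene bisacetamide, was first known as an agent that makes leukaemia and other tumour cells differentiate. It frees the elongation kinase P-TEFb, made of CDK9 and a T-type cyclin, from the 7SK small nuclear ribonucleoprotein, where HEXIM1 or HEXIM2 holds it inactive. P-TEFb releases RNA polymerase II from promoter-proximal pausing, in which the complexes NELF and DSIF hold the polymerase, and NELFE is the RNA-binding subunit of NELF.

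Total counts of the 5 libraries ran from 13647819 to 17867037 over 60676 gene identifiers, and 3 counts in 1 library, taken as the lowest readable level, equal 0.168 to 0.22 CPM on unscaled totals. Such floors and the intervals cover counting error only. Unless stated, levels are CPM with TMM scaling among the 5 and are given as HMBA alone, both compounds replicate 1 and replicate 2, then DMSO and EPZ-5676. Of 8 epithelial markers, all were measured, with summed levels of 5495, 8226 and 4871 CPM with HMBA and 4555 and 5097 CPM without it. The highest sum was in shNELFE EPZ-5676+HMBA 1, the library numbered 1. EPCAM, CDH1 and KRT19 of these markers, and VIM of the mesenchymal markers below, were looked at when the libraries were chosen. The epithelial and mesenchymal sums are therefore no independent sign of cell type. The leukocyte genes CD3E and TYROBP, the endothelial gene EMCN and the neural genes GFAP, SOX10 and ELAVL3 were at 0 in all 5. Other markers were not at 0. The endothelial gene PECAM1 stood at 8.37, 9.26 and 9.48 CPM with HMBA, against 0.834 and 0.722 CPM without it. The mesenchymal gene COL1A1 stood at 31.1, 35.4 and 46.2 CPM with HMBA, against 9.4 and 16 CPM without it. Of 3 endothelial and 4 mesenchymal markers tested, 1 each was called higher and 0 lower, against 18.1% and 22.1% of all genes tested. The mitochondrial share of counts was 9.86%, 12.2% and 9.93% with HMBA and 6.90% and 6.22% without it. Summed neural markers, mostly TUBB3, were 642, 668 and 620.0 CPM with HMBA and 159 and 169 CPM without it. The sums were 61.3, 82.4 and 92.1 against 33.9 and 57.8 CPM for 10 mesenchymal, 10.8, 11.4 and 14.4 against 2.28 and 2.77 CPM for 5 endothelial, and 10.5, 10.8 and 19.8 against 0.501 and 0.421 CPM for 7 leukocyte markers. The part of these markers and of the mitochondrial share in the results was not tested.

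Of 14481 genes tested, 2627 (18.1%) were higher and 3201 (22.1%) lower with HMBA at an edgeR adjusted p under 0.05, 5828 (40.2%) in all. The counts for gene lists below are of members that passed the filter on low counts. They are to be read beside these shares. Of the genes tested, 1517 (10.5%) rose and 1924 (13.3%) fell at least 2-fold, and 648 (4.47%) rose and 531 (3.67%) fell at least 4-fold. In 4829 genes (33.3%) all 3 libraries with HMBA were above both others and in 4896 (33.8%) below both, called or not. On unscaled totals, where the median of all genes shifted by -0.32 on the log2 scale, 1406 genes were called higher and 4373 lower, so that 24.3% of calls were rises in place of 45.1%. Changes are therefore relative to the scaled total, and in bulk RNA a change in cell number of a type cannot be told apart from a change in RNA per cell. Each library was also left out in turn. Without shNELFE HMBA 2 or shNELFE DMSO 2, the HMBA term rests on both compounds against EPZ-5676 alone. Without shNELFE EPZ-5676 2, it rests on HMBA alone against DMSO. Here and below, these fits repeat those contrasts and are no separate checks of the total called. The total was 2917 without shNELFE HMBA 2, 2895 without shNELFE DMSO 2 and 1558 without shNELFE EPZ-5676 2, and 1389 genes (23.8% of calls) were called in the same direction in each of the 5 fits that left out a library. Of 196 called genes chosen by the naming rule, HEXIM1 and CDH1 among them, 130 held in all 5 such fits, and calls that did not are given beside the genes described below.

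Several of the largest rises were of genes with few counts without HMBA, and several of the largest falls were of secreted ligands. CCN2, a matricellular protein and target of YAP and TGF-beta also known as CTGF, stood at 690.3, 1009.7 and 793 CPM with HMBA, against 12 and 12.4 CPM without it. It was ENSG00000118523 at hg38 chromosome 6, 131948176 to 131951373, and it had a log2 fold change of 6.04 (SE 0.25) and an edgeR adjusted p of 1.74e-05. All 3 libraries with HMBA lay far above both without it, with the highest level in the library numbered 1. PDE4B, a phosphodiesterase that breaks down cyclic AMP (ENSG00000184588, chromosome 1, 65792514 to 66374579), stood at 4.34, 2.77 and 3.5 CPM with HMBA, against 218 and 185 CPM without it. It fell 55.1-fold, with a log2 fold change of -5.78 (SE 0.20) and an edgeR adjusted p of 1.30e-05, the smallest p of the 14481 genes.

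Other large rises were read in the same 5 libraries. ARC, a neuronal activity-regulated gene related to retroviral Gag, stood at 340.2, 333 and 282 CPM with HMBA, against 5.84 and 5.89 CPM without it. TENT5C, a non-canonical poly(A) polymerase, stood at 103, 114 and 119 CPM with HMBA, against 1.5 and 2.71 CPM without it. DLL4, a Notch ligand best known from endothelium, stood at 31.2, 48.5 and 39.7 CPM with HMBA, against 0.723 and 1.2 CPM without it. Each of these 3 genes was low without HMBA, and the groups did not overlap. FOS, an AP-1 subunit, stood at 151, 250.2 and 226 CPM with HMBA, against 6.06 and 6.44 CPM without it. DHRS2, a mitochondrial short-chain dehydrogenase known to be induced by histone deacetylase inhibitors, stood at 119, 234 and 291 CPM with HMBA, against 3.06 and 11.8 CPM without it. FOS was lowest with HMBA alone among the libraries with HMBA, and DHRS2 stood higher with EPZ-5676 than with DMSO in the libraries without it. ASTL, an oocyte protease, had 632 counts with HMBA and 5 without, a ratio of 106 (95% interval 45.0 to 326). ITGAM, an integrin chain of myeloid cells, PYGM, muscle glycogen phosphorylase, ADRA2B, an adrenergic receptor, LSMEM1, a small membrane protein, and IQCN had log2 fold changes of 5.35, 5.15, 5.10, 5.03 and 4.72, with summed counts of 10 to 43 without HMBA. ITGAM is also a leukocyte marker, but the other 6 leukocyte markers were at most 0.802 CPM. The thyroglobulin gene TG and the adrenergic receptor gene ADRA2A, taken after their values were seen, had 395 and 108 counts with HMBA and 0 without, at least 110.0-fold and 30.1-fold higher if the 2 libraries without it are set at 3 counts together.

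Among the falls were ligands. WNT16, a WNT ligand, stood at 4.73, 4.4 and 2.19 CPM with HMBA, against 163 and 106 CPM without it. BMP4, a bone morphogenetic protein, stood at 17.6, 16.3 and 15.2 CPM with HMBA, against 356 and 530.0 CPM without it. LIF, a cytokine of the interleukin-6 family, stood at 5.97, 3.11 and 4.74 CPM with HMBA, against 144 and 104 CPM without it. In all 3 the groups were far apart, with the lowest of the libraries without HMBA many times above the highest with it. F3, tissue factor, which starts blood coagulation, stood at 11.6, 16 and 16.6 CPM with HMBA, against 190.0 and 353 CPM without it. IRS1, the adaptor of insulin and IGF receptors, stood at 9.38, 3.18 and 7.29 CPM with HMBA, against 125 and 144 CPM without it. GRIN2B, an NMDA receptor subunit, ZBED2, a transcription factor, ZIC5, a zinc finger factor, FJX1, a secreted protein related to fly four-jointed, ITPRIPL1 and PLD6, a mitochondrial phospholipase, had log2 fold changes of -4.44, -4.79, -4.81, -5.00, -4.81 and -4.23. All 12 largest rises and all 12 largest falls had an edgeR adjusted p of 0.000118 or below and were called without each library in turn. The plot of levels by library shows these 24 genes.

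**Figure D1:**
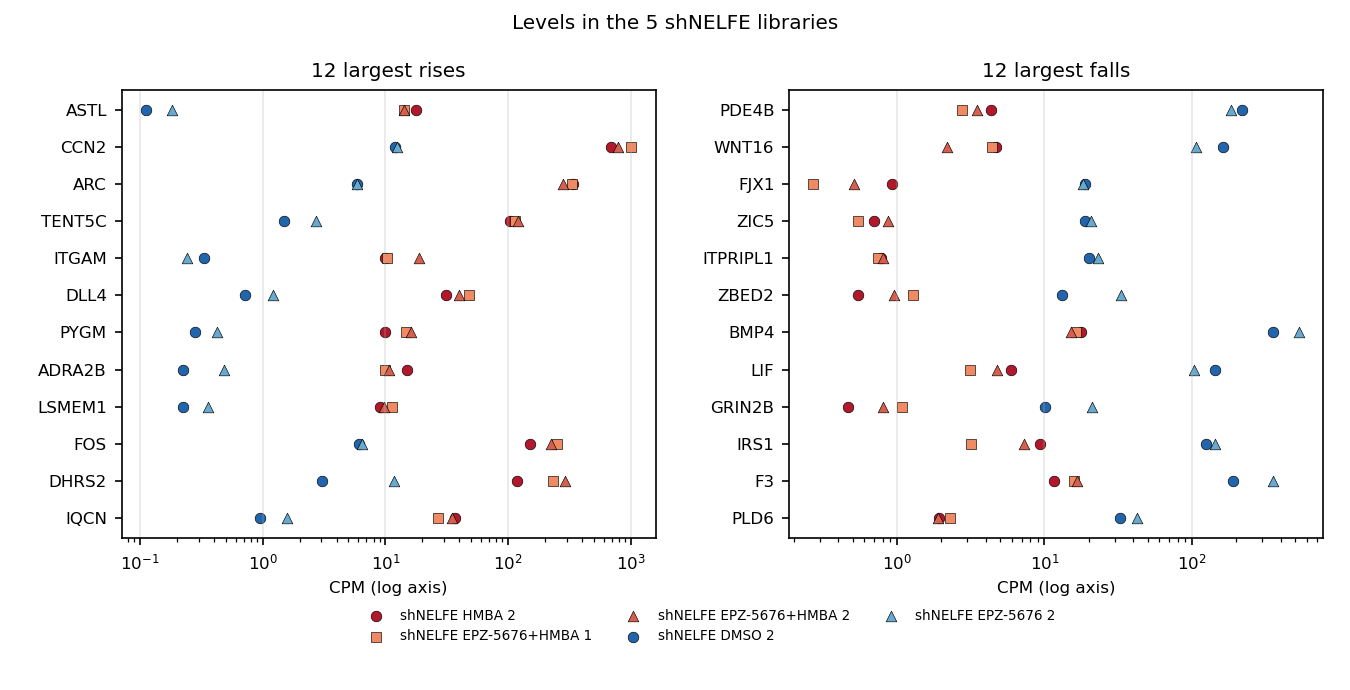
CPM in each of the 5 shNELFE libraries (log axis) for the 12 largest rises, left, and the 12 largest falls, right. Red symbols are libraries with HMBA and blue symbols those without; CCN2 stands at 690.3 to 1009.7 CPM with HMBA against 12 and 12.4 without, and PDE4B at 2.77 to 4.34 CPM against 218 and 185.

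Promoters are printed for the largest rise and the largest fall with a RefSeq promoter and for HEXIM1 and CDKN1A, a 7SK component and a cell cycle inhibitor described below. ASTL was the larger rise and is named only. Each run is 300 bases, from 250 before to 50 after the start listed in RefSeq on GRCh38.p14, 5′ to 3′ on the strand of the gene, and for PDE4B the first of 6 listed starts was taken. Capitals mark matches, on either strand, to any of the 6 motifs whose shares are given after the sequences, with overlapping matches joined.
CCN2 (chr6:131951323-131951622, - strand): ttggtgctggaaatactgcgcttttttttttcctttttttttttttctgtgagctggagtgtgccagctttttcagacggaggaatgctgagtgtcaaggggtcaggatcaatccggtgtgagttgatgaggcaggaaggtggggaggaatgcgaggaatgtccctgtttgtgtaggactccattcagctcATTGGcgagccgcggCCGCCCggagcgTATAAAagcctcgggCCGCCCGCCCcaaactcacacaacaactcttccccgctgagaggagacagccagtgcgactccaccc
PDE4B (chr1:65792260-65792559, + strand): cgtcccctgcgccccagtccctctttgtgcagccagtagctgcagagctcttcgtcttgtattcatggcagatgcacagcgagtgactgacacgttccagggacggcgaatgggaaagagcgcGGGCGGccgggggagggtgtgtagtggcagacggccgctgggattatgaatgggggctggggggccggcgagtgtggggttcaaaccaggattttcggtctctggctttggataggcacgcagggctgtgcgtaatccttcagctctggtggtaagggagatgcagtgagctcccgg
HEXIM1 (chr17:45148225-45148524, + strand): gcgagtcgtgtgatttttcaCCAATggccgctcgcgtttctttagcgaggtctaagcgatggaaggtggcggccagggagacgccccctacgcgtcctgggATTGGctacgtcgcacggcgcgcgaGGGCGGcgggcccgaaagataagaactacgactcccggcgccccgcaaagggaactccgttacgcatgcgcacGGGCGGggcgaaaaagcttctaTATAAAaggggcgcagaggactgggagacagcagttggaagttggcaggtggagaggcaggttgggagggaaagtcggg
CDKN1A (chr6:36678464-36678763, + strand): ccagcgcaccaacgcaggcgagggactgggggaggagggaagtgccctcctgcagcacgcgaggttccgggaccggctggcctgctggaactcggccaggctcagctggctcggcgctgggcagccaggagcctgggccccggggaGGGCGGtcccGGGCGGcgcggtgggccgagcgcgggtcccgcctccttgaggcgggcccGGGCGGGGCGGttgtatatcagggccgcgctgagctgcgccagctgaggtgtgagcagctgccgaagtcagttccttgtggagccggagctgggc
CCN2 and HEXIM1 each held TATAAA, at positions -32 and -29 relative to the listed start, and both held CCAAT and GGGCGG. PDE4B and CDKN1A held GGGCGG alone, PDE4B in 1 match and CDKN1A in 4. TATAAA was found in 5.39% of the promoters of 10192 tested protein-coding genes, CCAAT in 36.8%, GGGCGG in 71.2%, CACGTG in 10.1%, TGACTCA in 2.86% and TGACGTCA in 3.28%. A comparison of these shares between genes changed at least 4-fold is void, since a promoter was listed for only 75.5% of the protein-coding genes that rose (358 of 474) and of those that fell (286 of 379).

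Genes of the 7SK complex, on which HMBA acts, stood on both sides of 0. HEXIM1 stood at 371, 331 and 375 CPM with HMBA, against 65.7 and 64.8 CPM without it, 5.53-fold higher, and is given without a test because it guided the choice of libraries. HEXIM2, its paralogue, went the other way and stood at 1.32, 2.03 and 0.948 CPM with HMBA, against 10.1 and 7.28 CPM without it, with a log2 fold change of -2.54 (SE 0.35) and an edgeR adjusted p of 0.000873. HEXIM2 lies outside the naming rule and was taken after its values were seen. MEPCE, which caps 7SK RNA, had 0.50 (SE 0.16, adjusted p 0.0411), and LARP7, which binds the RNA's end, had -0.58 (SE 0.17, adjusted p 0.0275). CDK9 stood at 50.9, 52.4 and 51.4 CPM with HMBA, against 60.6 and 63.9 CPM without it and was not called. Of the 6 listed genes other than HEXIM1, 1 was higher, MEPCE, and 2 lower, HEXIM2 and LARP7. The higher count was 0, 0 and 0 and the lower count 1, 1 and 1 without shNELFE HMBA 2, shNELFE DMSO 2 or shNELFE EPZ-5676 2. For the 7SK list, the higher count was 2 without shNELFE EPZ-5676+HMBA 1. MEPCE and LARP7 lost their calls without shNELFE HMBA 2, shNELFE DMSO 2 or shNELFE EPZ-5676 2.

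Among the NELF subunits, NELFA fell, and NELFB and NELFCD did not pass the test. NELFE stood at 17, 12.7 and 14.6 CPM with HMBA, against 17.7 and 21 CPM without it and is given with no test. All 3 libraries with HMBA lay below both without it, as they did in 33.8% of all genes tested. Since NELFE guided the choice of libraries, this order is no result. NELFA, another subunit of the complex, stood at 16.5, 23.7 and 19.6 CPM with HMBA, against 43.1 and 53.1 CPM without it, with a log2 fold change of -1.33 (SE 0.18) and an edgeR adjusted p of 0.00077. NELFB and NELFCD had log2 fold changes of 0.08 and -0.21, with edgeR adjusted p of 0.746 and 0.311. On unscaled totals NELFB had -0.25, which reverses its sign. Of 17 genes of NELF, DSIF and other elongation factors beside NELFE, 1 was higher and 5 lower. The lower ones were NELFA, IWS1, a partner of the elongation factor SPT6 (-1.53), and LEO1 (-0.77), CDC73 (-0.79) and PAF1 (-0.52) of the PAF1 complex. The higher one was CTR9 (0.48) of the same complex. The higher count was 0, 0 and 0 and the lower count 2, 2 and 2 without shNELFE HMBA 2, shNELFE DMSO 2 or shNELFE EPZ-5676 2. For elongation factors, the higher count was 3 without shNELFE EPZ-5676+HMBA 1 or shNELFE EPZ-5676+HMBA 2. LEO1, CDC73, PAF1 and CTR9 lost their calls without shNELFE HMBA 2, shNELFE DMSO 2 or shNELFE EPZ-5676 2.

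POLR2A, the catalytic subunit of RNA polymerase II, stood at 2017, 1824 and 2124 CPM with HMBA, against 323 and 342 CPM without it. That is a 5.97-fold rise, with a log2 fold change of 2.58 (SE 0.20) and an edgeR adjusted p of 7.25e-05. Of the 12 polymerase II subunit genes, 3 were higher and 0 lower, the others being POLR2L (0.91) and POLR2C (0.57). The count of higher subunit genes was 6 without shNELFE EPZ-5676+HMBA 1 and 7 without its replicate 2. DOT1L, the target of EPZ-5676, stood at 29.2, 25.6 and 33 CPM with HMBA, against 91.5 and 86.1 CPM without it, with a log2 fold change of -1.59 (SE 0.18) and an edgeR adjusted p of 0.000342. MLLT10, the DOT1L cofactor AF10, is in the same list and stood at 5.66, 4.46 and 7.22 CPM with HMBA, against 47.5 and 59.1 CPM without it, with a log2 fold change of -3.23 (SE 0.23) and an edgeR adjusted p of 5.86e-05. ELL2, an elongation factor of the super elongation complex, and BRD2, a BET reader of acetylated histones, rose with log2 fold changes of 1.64 and 1.53. Of 15 genes of that list 4 were higher and 6 lower, with lower counts of 3, 3 and 2 without shNELFE HMBA 2, shNELFE DMSO 2 or shNELFE EPZ-5676 2. Of 31 Mediator subunits, which bridge activators and polymerase, 4 were higher (12.9%) and 8 lower (25.8%). These shares are near the 18.1% and 22.1% of all genes tested. MED26 (1.63) was among the higher ones, and MED8 (-1.78), MED22 (-1.69) and MED13 (-1.30) were among the lower ones. Those Mediator counts were 1, 1 and 1 higher and 3, 3 and 3 lower without shNELFE HMBA 2, shNELFE DMSO 2 or shNELFE EPZ-5676 2. For RNA polymerase II subunits, the higher count was 1 without shNELFE HMBA 2, shNELFE DMSO 2 or shNELFE EPZ-5676 2. For the super elongation complex list, the higher count was 2 without shNELFE EPZ-5676 2. POLR2L and POLR2C lost their calls without shNELFE HMBA 2, shNELFE DMSO 2 or shNELFE EPZ-5676 2.

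MYC fell, and genes of its network moved both ways. MYC (ENSG00000136997, chromosome 8, 127735434 to 127741434), the transcription factor of growth and ribosome production, stood at 68.4, 55 and 60.8 CPM with HMBA, against 622 and 724 CPM without it. This is a 10.9-fold fall with a log2 fold change of -3.45 (SE 0.18) and an edgeR adjusted p of 2.47e-05, and the log2 fold change stayed between -3.66 and -3.19 with any library left out. MXD1, which competes with MYC for their shared partner MAX, stood at 14.2, 15.8 and 23.2 CPM with HMBA, against 1.84 and 2.41 CPM without it, with a log2 fold change of 2.98 (SE 0.28) and an edgeR adjusted p of 0.000144. MAX stood at 43.4, 34.9 and 45.6 CPM with HMBA, against 42.9 and 48.8 CPM without it and was not called. MGA and MNT, which also pair with MAX, went down with MYC, at log2 fold changes of -2.48 and -1.78. Of 12 genes of the network 5 were higher and 4 lower, and their median of 0.16 was -0.16 on unscaled totals. The higher count was 1, 2 and 2 without shNELFE HMBA 2, shNELFE DMSO 2 or shNELFE EPZ-5676 2. On unscaled totals, 4 genes of the MYC network were higher and 5 lower.

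Most listed genes for assembling ribosomes fell, whereas most genes for the ribosome's own proteins were called higher. Of 34 genes of ribosome biogenesis and RNA polymerase I, 22 fell and 2 rose, with a median log2 fold change of -0.65, against 0.021 over all genes tested. URB2, a nucleolar assembly factor, stood at 11.6, 8.72 and 13.1 CPM with HMBA, against 78.8 and 90.5 CPM without it, with a log2 fold change of -2.93 (SE 0.22) and an edgeR adjusted p of 6.20e-05. POLR1B, the second subunit of RNA polymerase I, stood at 34.1, 31.2 and 39.6 CPM with HMBA, against 140.5 and 156 CPM without it, with a log2 fold change of -2.10 (SE 0.17) and an edgeR adjusted p of 0.000101. RRS1 and PPAN, assembly factors of the large subunit, had -1.58 and -1.50, and all 4 kept their calls without each library. The number that fell was 11, 11 and 7 without shNELFE HMBA 2, shNELFE DMSO 2 or shNELFE EPZ-5676 2, while the median stayed between -0.72 and -0.61 with any library left out. Of 20 purine and pyrimidine synthesis genes 6 were lower, such as PFAS (-1.06), UMPS (-0.95) and DHODH (-0.92), and 1 higher, IMPDH2 (1.02), with lower counts of 1, 1 and 0 without the same libraries in that order and 11 without shNELFE EPZ-5676+HMBA 1. For ribosome biogenesis, the higher count was 0 without shNELFE HMBA 2, shNELFE DMSO 2 or shNELFE EPZ-5676 2 and 4 without shNELFE EPZ-5676+HMBA 1. For purine and pyrimidine synthesis, the higher count was 0 without shNELFE HMBA 2, shNELFE DMSO 2 or shNELFE EPZ-5676 2. PFAS lost its call without shNELFE EPZ-5676 2. UMPS, DHODH and IMPDH2 lost their calls without shNELFE HMBA 2, shNELFE DMSO 2 or shNELFE EPZ-5676 2.

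Of 75 cytosolic ribosomal protein genes, 63 rose (84%) and 0 fell, against 18.1% and 22.1% of all genes tested. In all 75 the 3 libraries with HMBA lay above both without it, as they did in 33.3% of all genes tested. On unscaled totals only 15 of these 75 genes were called higher. Their log2 fold changes ran from 0.39 to 0.97, a narrow range, with a median of 0.64 that was 0.32 on unscaled totals. RPLP1, of the ribosomal stalk, stood at 1208, 1555 and 1103 CPM with HMBA, against 643 and 657 CPM without it, and RPS12, of the small subunit, at 1237, 1574 and 1232 CPM with HMBA, against 710.0 and 658 CPM without it. Their edgeR adjusted p were 0.00703 and 0.00584. The library numbered 1 was the highest for both. RPS20 and RPL10 had log2 fold changes of 0.94 and 0.92. With its small size the effect is called or not by the library set: 2, 2 and 0 of the genes were called without shNELFE HMBA 2, shNELFE DMSO 2 or shNELFE EPZ-5676 2, and 75 and 74 without replicates 1 and 2 of shNELFE EPZ-5676+HMBA. Many of these genes have processed pseudogenes that can share reads. Of 24 other mRNAs with a 5′ terminal oligopyrimidine tract, 10 rose, among them the host RNAs of small nucleolar RNAs SNHG1 (1.20) and SNHG5 (0.98), the elongation factor gene EEF2 (0.77) and PABPC1 (0.69), with counts of 2, 2 and 0 without shNELFE HMBA 2, shNELFE DMSO 2 or shNELFE EPZ-5676 2 and 21 and 20 without the libraries with both compounds. For the 5′ oligopyrimidine mRNAs, the lower count was 1 without shNELFE EPZ-5676+HMBA 1. RPLP1, RPS12, RPS20, RPL10, EEF2 and PABPC1 lost their calls without shNELFE HMBA 2, shNELFE DMSO 2 or shNELFE EPZ-5676 2. SNHG1 and SNHG5 lost their calls without shNELFE EPZ-5676 2.

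All 13 mRNAs of the mitochondrial genome rose, with log2 fold changes from 0.84 to 1.43. MT-ND6, the one encoded on the light strand, stood at 131, 152 and 139.8 CPM with HMBA, against 61.2 and 45 CPM without it, and MT-CYB, of respiratory complex III, at 6618, 9706 and 6496 CPM with HMBA, against 3426 and 3090.0 CPM without it. Complex I subunit genes MT-ND3 and MT-ND2 had 1.23 and 1.17. MT-CYB was highest in the library numbered 1, whereas MT-ND6 was close in the 3 libraries with HMBA. The count was 3, 3 and 0 without shNELFE HMBA 2, shNELFE DMSO 2 or shNELFE EPZ-5676 2. By contrast, of 67 nuclear genes for mitochondrial ribosomal proteins 1 was higher and 9 lower, and 57 did not pass. MRPS30 (-1.10), MRPL36 (-1.06), MRPL34 (-0.91) and MRPS26 (-0.86) were the largest, with a lower count of 1, 1 and 0 without shNELFE HMBA 2, shNELFE DMSO 2 or shNELFE EPZ-5676 2 and 22 without shNELFE EPZ-5676+HMBA 1. For mitochondrial ribosomal proteins, the higher count was 0 without shNELFE HMBA 2, shNELFE DMSO 2 or shNELFE EPZ-5676 2 and 7 without shNELFE EPZ-5676+HMBA 1 and 9 without shNELFE EPZ-5676+HMBA 2. MT-ND6, MT-ND3 and MRPL36 lost their calls without shNELFE EPZ-5676 2. MT-CYB, MT-ND2, MRPS30, MRPL34 and MRPS26 lost their calls without shNELFE HMBA 2, shNELFE DMSO 2 or shNELFE EPZ-5676 2.

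Of 8 genes for inhibitors of cyclin-dependent kinases, 6 rose and 0 fell, while on unscaled totals 4 were higher and 1 lower. The 2 that did not pass were CDKN1B (-0.54) and CDKN2C (0.08), taken to complete the list. CDKN1A, which encodes p21, a p53 target, stood at 1185, 979 and 1089.8 CPM with HMBA, against 163 and 132 CPM without it, with a log2 fold change of 2.92 (SE 0.19) and an edgeR adjusted p of 4.65e-05. CDKN1C, which encodes p57, stood at 74.8, 152 and 96 CPM with HMBA, against 6.84 and 4.69 CPM without it, with a log2 fold change of 4.13 (SE 0.37) and an edgeR adjusted p of 0.000122. The groups did not overlap for either gene, and CDKN1C was highest in the library numbered 1. CDKN2B, which encodes p15 and is a TGF-beta target, stood at 31.2, 21.6 and 24.4 CPM with HMBA, against 3.39 and 3.13 CPM without it, and CDKN2D, which encodes p19, had 1.81 (SE 0.21, adjusted p 0.000346). The count was 4, 4 and 4 without shNELFE HMBA 2, shNELFE DMSO 2 or shNELFE EPZ-5676 2. For CDK inhibitors, the lower count was 1 without shNELFE EPZ-5676+HMBA 1 or shNELFE EPZ-5676+HMBA 2.

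Genes of the cell cycle itself moved in part. Of 17 genes for G1 cyclins, RB proteins and E2F factors 6 fell and 1 rose. E2F8, a repressive E2F, stood at 4.18, 1.28 and 2.77 CPM with HMBA, against 24.2 and 20.9 CPM without it, and E2F2, an activating one, at 3.25, 3.45 and 3.43 CPM with HMBA, against 19.5 and 22.2 CPM without it. CDK6, the G1 kinase, had -1.26 (SE 0.18, adjusted p 0.00101), and RBL1, the RB relative p107, -1.17 (SE 0.18, adjusted p 0.00137). Of 30 DNA replication genes 10 fell and 3 rose, with GINS3 of the replicative helicase at -1.56, the epigenetic factor UHRF1 at -1.38, the licensing factor CDT1 at -1.17 and the clamp loader subunit RFC3 at -1.10. Of 35 mitosis genes 13 fell and 2 rose. The phosphatase gene CDC25A stood at 18.8, 22.5 and 18.7 CPM with HMBA, against 66.6 and 67.3 CPM without it and the kinase gene AURKA at 21.4, 25.5 and 25.1 CPM with HMBA, against 72.3 and 77.9 CPM without it. BUB1B of the spindle checkpoint had -1.36 and NDC80 of the kinetochore -1.12. In these lists 10, 17 and 20 genes did not pass. The lower counts of the 3 lists were 4, 5 and 2, then 4, 5 and 1, then 4, 4 and 2 without shNELFE HMBA 2, shNELFE DMSO 2 or shNELFE EPZ-5676 2, and for replication 16 without shNELFE EPZ-5676+HMBA 1. For G1 cyclins, RB and E2F, the higher count was 0 without shNELFE HMBA 2, shNELFE DMSO 2 or shNELFE EPZ-5676 2. For DNA replication, the higher count was 1 without shNELFE HMBA 2 or shNELFE DMSO 2 and 0 without shNELFE EPZ-5676 2. For mitosis, the higher count was 0 without shNELFE HMBA 2, shNELFE DMSO 2 or shNELFE EPZ-5676 2 and 4 without shNELFE EPZ-5676+HMBA 1. CDK6, RBL1, UHRF1, CDT1, RFC3, BUB1B and NDC80 lost their calls without shNELFE EPZ-5676 2.

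Among 25 p53 target genes 11 rose (44%) and 4 fell (16%), against 18.1% and 22.1% of all genes tested. Besides CDKN1A, SESN2, a stress-induced inhibitor of mTORC1 signalling, stood at 64.7, 57.5 and 65.4 CPM with HMBA, against 8.51 and 6.07 CPM without it, BTG2, an antiproliferative factor, had 2.50 (SE 0.23, adjusted p 0.000131) and the kinase gene PLK3 1.86 (SE 0.19, adjusted p 0.000207). Of 15 genes of the BCL2 family, which set the threshold for apoptosis, 3 rose and 3 fell (20% each), shares near the 18.1% and 22.1% of all genes tested. The survival genes BCL2L1, which encodes BCL-XL, and BCL2L2 fell and stood at 62.9, 68.3 and 54.9 CPM with HMBA, against 202 and 240.3 CPM without it and at 14, 14.7 and 15.7 CPM with HMBA, against 36.8 and 38.4 CPM without it. The pro-death gene BCL2L11, which encodes BIM, rose and stood at 90.8, 73.2 and 113 CPM with HMBA, against 23 and 27.2 CPM without it, and BOK, another pro-death member, fell with -1.90. The list's median of 0.07 was -0.25 on unscaled totals. The p53 counts were 5, 5 and 4 higher and 1, 1 and 0 lower without shNELFE HMBA 2, shNELFE DMSO 2 or shNELFE EPZ-5676 2. For the BCL2 family, the lower count was 5 without shNELFE EPZ-5676+HMBA 1.

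All 12 measured AP-1 factors passed the test, 7 higher and 5 lower. Besides FOS, FOSB stood at 39.4, 38.9 and 36 CPM with HMBA, against 4.95 and 6.32 CPM without it, JUNB at 274, 279.7 and 252 CPM with HMBA, against 47.5 and 45.2 CPM without it and ATF3, a stress-induced factor, at 50.6, 55.2 and 51.9 CPM with HMBA, against 6.79 and 7.94 CPM without it. JUN, JUND and MAFF, given since every member is described, had log2 fold changes of 1.77, 1.96 and 2.19. FOSL1 (-1.18), FOSL2 (-0.80), BATF3 (-1.27), MAFK (-1.27) and MAFG (-1.02) fell, so that the FOS family itself split. The higher count was 7 with any library left out and the lower count 2, 2 and 0 without shNELFE HMBA 2, shNELFE DMSO 2 or shNELFE EPZ-5676 2. Of 22 other early response genes 13 rose and 3 fell. EGR1, a growth factor-induced zinc finger factor, stood at 197, 186 and 219 CPM with HMBA, against 24.1 and 29.1 CPM without it, and IER5 at 136, 189 and 131 CPM with HMBA, against 32.5 and 25.3 CPM without it. BTG1 (3.37), an antiproliferative gene, and KLF2 (2.37) rose too, and the count was 10, 10 and 8 without shNELFE HMBA 2, shNELFE DMSO 2 or shNELFE EPZ-5676 2. FOSL1 and MAFK lost their calls without shNELFE EPZ-5676 2. FOSL2, BATF3 and MAFG lost their calls without shNELFE HMBA 2, shNELFE DMSO 2 or shNELFE EPZ-5676 2.

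In the EGF receptor family and its ligands, 3 of 10 genes rose and 4 fell. EREG, which encodes epiregulin, stood at 64.5, 36.1 and 36.3 CPM with HMBA, against 854 and 546 CPM without it, with a log2 fold change of -3.83 (SE 0.17) and an edgeR adjusted p of 1.74e-05. HBEGF, another ligand of the same receptors, stood at 68.7, 94.5 and 66.7 CPM with HMBA, against 12.9 and 18.6 CPM without it, with a log2 fold change of 2.24 (SE 0.22) and an edgeR adjusted p of 0.000195. The 2 ligands thus moved in opposite directions, each without overlap. EGFR stood at 63.9, 56 and 57.8 CPM with HMBA, against 158 and 174 CPM without it, and AREG, which encodes amphiregulin, had -0.85 (SE 0.18, adjusted p 0.00608). Among 17 MAP kinase phosphatase and feedback genes 5 rose and 5 fell (29.4% each), against 18.1% and 22.1% of all genes tested. The ETS factor gene ETV5 had 2.84, the phosphatase gene DUSP1 1.88, PHLDA1 -0.90 and SPRED1 -1.20. That list's median was 0.09, and -0.23 on unscaled totals. The ligand and receptor counts were 1, 1 and 1 higher and 3, 3 and 2 lower without shNELFE HMBA 2, shNELFE DMSO 2 or shNELFE EPZ-5676 2. The feedback counts were 2, 2 and 2 higher and 1, 1 and 0 lower without the same libraries in that order. AREG and PHLDA1 lost their calls without shNELFE HMBA 2, shNELFE DMSO 2 or shNELFE EPZ-5676 2. SPRED1 lost its call without shNELFE EPZ-5676 2.

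Most listed genes of the YAP and TEAD pathway fell, while both listed CCN genes rose. Of 17 genes 10 fell and 2 rose, and the median was -1.14. The risers were CCN2 and CCN1, also known as CYR61, which stood at 255, 538 and 326 CPM with HMBA, against 69.9 and 54.2 CPM without it. AJUBA, a LIM protein of Hippo signalling, stood at 17, 14.4 and 13.9 CPM with HMBA, against 73.6 and 69.1 CPM without it, and F3, described above, is the other large fall. YAP1 and TEAD4, the coactivator and a DNA-binding partner, taken after their values were seen, had -1.47 (SE 0.18, adjusted p 0.000526) and -1.46 (SE 0.22, adjusted p 0.00132). CCN1 and CCN2 are also targets of other factors. The number that fell was 8, 8 and 4 without shNELFE HMBA 2, shNELFE DMSO 2 or shNELFE EPZ-5676 2. YAP1 and TEAD4 lost their calls without shNELFE EPZ-5676 2.

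Of 28 BMP and TGF-beta genes 6 rose (21.4%) and 11 fell (39.3%), against 18.1% and 22.1% of all genes tested. Beside BMP4, BAMBI, a pseudoreceptor that blocks the pathway, stood at 9.61, 21.2 and 15.1 CPM with HMBA, against 1.39 and 1.98 CPM without it, and ACVR2B, an activin receptor, at 4.57, 8.05 and 5.76 CPM with HMBA, against 23.9 and 26.7 CPM without it. Of 24 WNT genes 8 rose and 8 fell (33.3% each). Beside WNT16, DKK1, a secreted WNT antagonist, stood at 97.2, 256 and 174 CPM with HMBA, against 620.5 and 681 CPM without it, RNF43, a ligase that removes WNT receptors, at 12.2, 4.67 and 7.08 CPM with HMBA, against 59.1 and 42.9 CPM without it and the receptor gene FZD4 at 32.5, 35.1 and 36.6 CPM with HMBA, against 8.4 and 8.42 CPM without it. DKK1 was higher in the library numbered 1 than in either other library with HMBA, yet below both without it. Of 19 Notch genes 5 rose (26.3%) and 3 fell (15.8%). Beside DLL4, the receptor gene NOTCH1 stood at 145, 119 and 158 CPM with HMBA, against 37.5 and 54.3 CPM without it, LFNG, which modifies Notch sugars, at 56, 85.7 and 54.9 CPM with HMBA, against 6.9 and 7.22 CPM without it and NRARP, a feedback inhibitor and Notch target, at 44.1, 40.5 and 39.6 CPM with HMBA, against 8.79 and 8.72 CPM without it. The HES and HEY genes, other Notch targets, had log2 fold changes from -0.02 to 0.23 and did not pass. The Notch list's median of 0.13 was -0.21 on unscaled totals. Without shNELFE HMBA 2, shNELFE DMSO 2 or shNELFE EPZ-5676 2, the BMP and TGF-beta genes that fell numbered 9, 8 and 5 and those that rose 3, 3 and 2, and the WNT genes 8, 7 and 5 and 6, 6 and 2. For the Notch pathway, the lower count was 0 without shNELFE EPZ-5676 2.

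Of 34 semaphorin, ephrin and receptor genes, which guide growing and moving cells, 11 rose (32.4%) and 9 fell (26.5%). The shares over all genes tested were 18.1% and 22.1%. EPHB3, an ephrin receptor of the intestinal crypt, stood at 31.9, 47.6 and 31.9 CPM with HMBA, against 1.56 and 1.92 CPM without it. Its ligand gene EFNB2 stood at 277, 307 and 291 CPM with HMBA, against 43.7 and 32.5 CPM without it and EFNB1 at 43.8, 50.2 and 44.1 CPM with HMBA, against 7.79 and 9.2 CPM without it. SEMA4C, a transmembrane semaphorin, fell and stood at 2.56, 3.58 and 2.99 CPM with HMBA, against 23.9 and 26.6 CPM without it. The counts were 7, 7 and 7 higher and 5, 5 and 2 lower without shNELFE HMBA 2, shNELFE DMSO 2 or shNELFE EPZ-5676 2. Of 22 integrin, laminin and basement membrane genes 2 rose and 1 fell, with ITGB8 at -2.25 and HSPG2, perlecan, at 0.65. Their median of 0.25 was -0.07 on unscaled totals, and without shNELFE EPZ-5676+HMBA 1 and 2 the higher counts were 9 and 6. On unscaled totals, 9 genes of semaphorins and ephrins were higher and 10 lower. For integrins and laminins, the higher count was 1 without shNELFE HMBA 2 or shNELFE DMSO 2 and 0 without shNELFE EPZ-5676 2, and the lower count was 4 without shNELFE EPZ-5676+HMBA 1 and 2 without shNELFE EPZ-5676+HMBA 2. On unscaled totals, 0 genes of integrins and laminins were higher and 3 lower. HSPG2 lost its call without shNELFE HMBA 2, shNELFE DMSO 2 or shNELFE EPZ-5676 2.

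**Figure D2:**
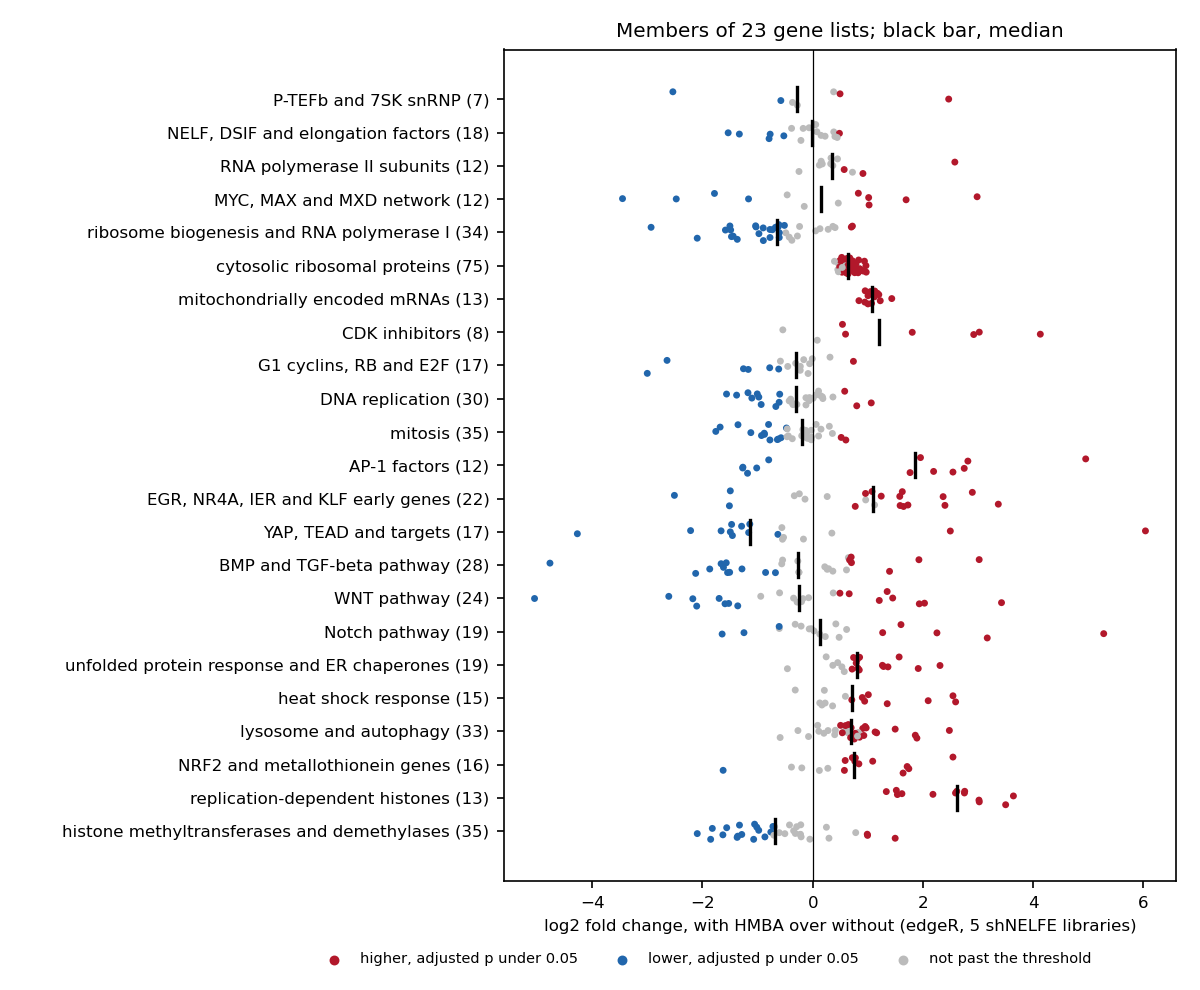
Each point is a measured member of one of 23 gene lists (number measured in brackets), placed by its log2 fold change with HMBA over without in the 5 shNELFE libraries (edgeR), with black bars for the medians. The ribosomal protein genes sit between 0.39 and 0.97, the AP-1 factors on both sides of 0 with none in grey, and the histone genes between 1.34 and 3.64.

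Many genes of protein folding rose. Of 19 unfolded protein response and endoplasmic reticulum chaperone genes 13 rose and 0 fell. HERPUD1, a component of protein disposal at the reticulum, stood at 177, 198 and 176 CPM with HMBA, against 37.3 and 36.4 CPM without it, with a log2 fold change of 2.31 (SE 0.18) and an edgeR adjusted p of 7.60e-05. ERN1, which encodes the stress sensor IRE1, stood at 45.6, 35.4 and 54.4 CPM with HMBA, against 13.5 and 10.9 CPM without it. HSPA5, the chaperone BiP, stood at 2078, 3772 and 2347 CPM with HMBA, against 833 and 904 CPM without it, highest in the library numbered 1, and DNAJC3 had 1.37. Of 15 heat shock genes 8 rose and 0 fell. HSPA1B stood at 2174, 2413 and 1722 CPM with HMBA, against 378 and 330.4 CPM without it and its near-identical copy HSPA1A at 42.2, 46.7 and 35.1 CPM with HMBA, against 8.68 and 6.01 CPM without it, and reads may be split between them. Their cochaperone gene DNAJB1 stood at 1025, 849.7 and 808 CPM with HMBA, against 246 and 190.2 CPM without it, and BAG3 had 1.35. The unfolded protein response count was 6, 6 and 2 and the heat shock count 4, 4 and 3 without shNELFE HMBA 2, shNELFE DMSO 2 or shNELFE EPZ-5676 2. For the unfolded protein response, the lower count was 1 without shNELFE EPZ-5676+HMBA 1. For the heat shock response, the lower count was 1 without shNELFE EPZ-5676+HMBA 1. HSPA5, DNAJC3 and BAG3 lost their calls without shNELFE EPZ-5676 2.

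Of 33 lysosome and autophagy genes 19 rose and 0 fell. MAP1LC3B, the autophagosome marker LC3B, stood at 447, 422 and 464 CPM with HMBA, against 91.1 and 72.1 CPM without it, with a log2 fold change of 2.48 (SE 0.19) and an edgeR adjusted p of 7.60e-05. ULK1, the kinase that starts autophagy, stood at 48, 43.5 and 53.6 CPM with HMBA, against 13.8 and 12.5 CPM without it, the sialidase gene NEU1 at 57.9, 82 and 60.7 CPM with HMBA, against 16.9 and 18.8 CPM without it and the cargo receptor gene SQSTM1 at 759, 983 and 796 CPM with HMBA, against 284 and 303 CPM without it. The 4 genes were each without overlap between the groups. Of 16 NRF2 and metallothionein genes 11 rose and 1 fell. The metal-binding MT1X stood at 55.3, 138 and 97.5 CPM with HMBA, against 12.4 and 16.4 CPM without it, MT2A had 1.74, MT1E 1.71 and OSGIN1, an oxidative stress gene, 1.64. Metallothionein genes are close copies that can share reads. The lysosome and autophagy count was 7, 7 and 3 and the NRF2 and metallothionein count 4, 4 and 4 without shNELFE HMBA 2, shNELFE DMSO 2 or shNELFE EPZ-5676 2. For NRF2 and metallothioneins, the lower count was 2 without shNELFE EPZ-5676+HMBA 1 or shNELFE EPZ-5676+HMBA 2. SQSTM1 lost its call without shNELFE EPZ-5676 2.

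Of 12 genes of the osmotic response 6 rose and 3 fell. SGK1, a kinase induced by salt and glucocorticoids, stood at 23.4, 46.8 and 37.8 CPM with HMBA, against 1.06 and 2.11 CPM without it. SLC6A12, a betaine transporter below the level set for named genes and taken after its values were seen, had 38, 55 and 74 counts with HMBA and 0 in both libraries without it, at least 46.5-fold higher if these are set at 3 counts together. SLC38A2, an amino acid transporter, and LRRC8D, a subunit of volume-regulated channels, fell with log2 fold changes of -1.65 and -1.43. The median of 0.41 is the same with SLC6A12 at its bound, and the higher count was 3, 3 and 3 without shNELFE HMBA 2, shNELFE DMSO 2 or shNELFE EPZ-5676 2. Of 24 genes for aminoacyl-tRNA synthetases and ATF4 targets 7 rose, such as ASNS (1.47) and DDIT3 (1.74), and 1 fell, TRIB3 (-2.15), with 4, 4 and 2 higher without those 3. Of 26 cholesterol and fatty acid synthesis genes 7 rose and 1 fell, with IDI1 at 2.07, INSIG1 at 1.91 and SC5D at 1.17, a median of 0.31 that was -0.02 on unscaled totals, and 3, 3 and 2 higher without those 3. On unscaled totals, 3 genes of the osmotic response were higher and 3 lower. For tRNA synthetases and ATF4 targets, the higher count was 13 without shNELFE EPZ-5676+HMBA 1 and 14 without shNELFE EPZ-5676+HMBA 2, and the lower count was 2 without shNELFE EPZ-5676+HMBA 1. For cholesterol and fatty acid genes, the higher count was 11 without shNELFE EPZ-5676+HMBA 1, and the lower count was 0 without shNELFE HMBA 2, shNELFE DMSO 2 or shNELFE EPZ-5676 2 and 4 without shNELFE EPZ-5676+HMBA 1. ATF4 lost its call without shNELFE HMBA 2, shNELFE DMSO 2 or shNELFE EPZ-5676 2. ASNS and SC5D lost their calls without shNELFE EPZ-5676 2.

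Of 27 glycolysis and hypoxia genes 12 rose and 3 fell. PFKFB3, which drives glycolytic flux, stood at 215, 222 and 238 CPM with HMBA, against 74 and 86.2 CPM without it, ALDOC had 1.26 and ALDOA 0.85. SLC2A1, the glucose transporter GLUT1, stood at 66.2, 123 and 77.5 CPM with HMBA, against 111 and 220.0 CPM without it, where the library numbered 1 lay above the DMSO library, so the groups overlap. Of 20 one-carbon, serine and polyamine genes 4 rose (20%) and 1 fell (5%), against 18.1% and 22.1% of all genes tested. SAT1, which acetylates polyamines, had 1.53, OAZ1 0.92, PHGDH 0.90 and MTR -1.12. The median of this list was 0.29, and -0.02 on unscaled totals. Of 31 proteasome subunits 2 passed, PSMD2 (0.58) and PSMD3 (0.57), and 0 were called without shNELFE HMBA 2, shNELFE DMSO 2 or shNELFE EPZ-5676 2. Without replicates 1 and 2 of shNELFE EPZ-5676+HMBA, 17 and 19 were. The glycolysis count was 3, 3 and 2 and the one-carbon count 1, 1 and 1 without shNELFE HMBA 2, shNELFE DMSO 2 or shNELFE EPZ-5676 2, and the one-carbon count 10 and 9 without the libraries with both compounds. For glycolysis and hypoxia, the higher count was 20 without shNELFE EPZ-5676+HMBA 2, and the lower count was 0 without shNELFE EPZ-5676 2. For one-carbon and polyamine synthesis, the lower count was 0 without shNELFE EPZ-5676 2 and 3 without shNELFE EPZ-5676+HMBA 1. On unscaled totals, 2 genes of one-carbon and polyamine synthesis were higher and 3 lower. For proteasome subunits, the lower count was 2 without shNELFE EPZ-5676+HMBA 1. On unscaled totals, 0 genes of proteasome subunits were higher and 3 lower. ALDOA, OAZ1, PHGDH, PSMD2 and PSMD3 lost their calls without shNELFE HMBA 2, shNELFE DMSO 2 or shNELFE EPZ-5676 2. SLC2A1 and MTR lost their calls without shNELFE EPZ-5676 2.

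Replication-dependent histone genes rose, all 13 of the 13 that passed the filter on low counts out of 29 listed. H2BC5 stood at 31, 39 and 41.6 CPM with HMBA, against 2.84 and 2.89 CPM without it, with a log2 fold change of 3.64 (SE 0.23) and an edgeR adjusted p of 4.03e-05. H4C14 stood at 12.5, 12.4 and 22.2 CPM with HMBA, against 0.89 and 1.74 CPM without it, H2BC21 at 11.9, 13.6 and 22.8 CPM with HMBA, against 1.78 and 2.65 CPM without it and H2AC11 at 12.4, 8.99 and 17.7 CPM with HMBA, against 1.61 and 2.17 CPM without it. For each of the 4 the highest library was shNELFE EPZ-5676+HMBA 2. Since a gene low without HMBA can pass the filter only through the libraries with it, the count is no share of the family. Histone transcripts are mostly without poly(A) and the genes are near copies, so their levels are uncertain in libraries selected for poly(A). Without shNELFE HMBA 2, shNELFE DMSO 2 or shNELFE EPZ-5676 2 the count was 11, 11 and 10.

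Of 35 histone methyltransferase and demethylase genes 16 fell and 3 rose, with a median of -0.69. NSD1, which methylates histone H3, stood at 30.2, 24.3 and 30.8 CPM with HMBA, against 115 and 128 CPM without it, with a log2 fold change of -2.09 (SE 0.18) and an edgeR adjusted p of 0.00011. KMT2D and KMT2B, which methylate histone H3 at promoters and enhancers, stood at 50.9, 32.4 and 61.6 CPM with HMBA, against 151 and 196 CPM without it and at 17, 16.4 and 20.5 CPM with HMBA, against 48.7 and 60.3 CPM without it. KMT5B, a methyltransferase for histone H4, had -1.82 (SE 0.19, adjusted p 0.00021). The genes that rose were the demethylase genes KDM3A (1.5), KDM4B (0.99) and KDM6A (0.99), named because they are the whole of that count. Of 23 histone acetyltransferase and deacetylase genes 7 fell (30.4%) and 2 rose (8.7%), against 22.1% and 18.1% of all genes tested. HDAC7 had -2.02, CREBBP -1.68, KAT6B -1.67 and KAT5 -1.32. Without shNELFE HMBA 2, shNELFE DMSO 2 or shNELFE EPZ-5676 2 the number of methylation genes that fell was 13, 13 and 5 and that rose 2, 2 and 1, and the number of acetylation genes that fell was 4, 4 and 3. For methylation genes, the higher count was 5 without shNELFE EPZ-5676+HMBA 1. For acetylation genes, the higher count was 0 without shNELFE HMBA 2, shNELFE DMSO 2 or shNELFE EPZ-5676 2 and 6 without shNELFE EPZ-5676+HMBA 1 and 4 without shNELFE EPZ-5676+HMBA 2. KDM4B lost its call without shNELFE HMBA 2, shNELFE DMSO 2 or shNELFE EPZ-5676 2. KDM6A and KAT5 lost their calls without shNELFE EPZ-5676 2.

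Markers of the cell type were read for the same change. CDH1, the epithelial cadherin, stood at 172, 184 and 164 CPM with HMBA, against 82.8 and 78.2 CPM without it, and the keratin gene KRT19 at 851, 1221 and 725 CPM with HMBA, against 894 and 999 CPM without it. Both were looked at when the libraries were chosen and are given without a test. The calls of CDH1 and HEXIM1 counted among the named genes above are likewise no support. Of 28 tight junction and desmosome genes beside CDH1, 5 rose (17.9%), with JUP at 1.13, and 6 fell (21.4%), with MARVELD2 at -1.12 and PKP2 at -1.02, shares near those of all genes tested. Their median of 0.02 was -0.29 on unscaled totals. Of 25 genes of colon differentiation only 5 passed the filter, of which 2 rose and 2 fell. CA2 (0.81) and KLF4 (0.77) rose, and CDX2, a gut homeobox factor, fell and stood at 3.18, 4.87 and 4.08 CPM with HMBA, against 9.9 and 13.1 CPM without it. The median was -0.45, and 0.24 without shNELFE DMSO 2, where 4 genes were tested. In neither list was a gene called without shNELFE EPZ-5676 2. Of 27 neuronal genes listed, 16 passed the filter, of which 8 rose and 0 fell. A gene low without HMBA can pass only through the libraries with it, so this count is no share of the list. TUBB3, a neuronal tubulin, stood at 641, 666 and 618 CPM with HMBA, against 159 and 168 CPM without it. MAP2 stood at 85.8, 75.5 and 114 CPM with HMBA, against 29.9 and 27 CPM without it. ENO2 had 0.69 and CALB2 0.65. The neuronal count was 5, 5 and 4 without shNELFE HMBA 2, shNELFE DMSO 2 or shNELFE EPZ-5676 2. For tight junctions, the higher count was 0 without shNELFE HMBA 2 or shNELFE DMSO 2, and the lower count was 3 without shNELFE DMSO 2 and 11 without shNELFE EPZ-5676+HMBA 1. For colon differentiation, the higher count was 0 without shNELFE HMBA 2 or shNELFE DMSO 2, and the lower count was 1 without shNELFE DMSO 2. JUP, CA2, KLF4, ENO2 and CALB2 lost their calls without shNELFE HMBA 2, shNELFE DMSO 2 or shNELFE EPZ-5676 2. MARVELD2, PKP2 and CDX2 lost their calls without shNELFE EPZ-5676 2.

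Of 15 HLA class I and antigen presentation genes 6 rose and 0 fell. HLA-E, a ligand of natural killer cell receptors, stood at 251, 355 and 269 CPM with HMBA, against 74.5 and 73.1 CPM without it, and B2M, the light chain of class I molecules, at 605, 769.5 and 581 CPM with HMBA, against 294 and 272 CPM without it. HLA-C had 1.04 and the chaperone gene CALR 1.26. Class I levels were highest in the library numbered 1, at 355 CPM for HLA-E. Of 26 interferon response genes 6 rose (23.1%) and 3 fell (11.5%), against 18.1% and 22.1% of all genes tested. IRF7 had 2.89, ISG15 0.85, DDX60 0.86 and IFIT5 -2.74. Of 14 NF-kB targets and chemokines 1 rose, NFKBIZ (3.11), and 3 fell, among them NFKB1 (-1.79) and BIRC3 (-1.75). Without shNELFE HMBA 2, shNELFE DMSO 2 or shNELFE EPZ-5676 2 the HLA count was 7, 6 and 1 and the interferon count 2, 2 and 1 higher. Without shNELFE EPZ-5676+HMBA 1 and 2 the HLA count was 10 and 12, and the interferon count 10 and 11. On unscaled totals, 2 genes of the interferon response were higher and 3 lower. For NF-kB targets, the higher count was 2 without shNELFE EPZ-5676+HMBA 1 and 3 without shNELFE EPZ-5676+HMBA 2, and the lower count was 5 without shNELFE EPZ-5676+HMBA 1. B2M, HLA-C and CALR lost their calls without shNELFE EPZ-5676 2. ISG15 and DDX60 lost their calls without shNELFE HMBA 2, shNELFE DMSO 2 or shNELFE EPZ-5676 2.

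Whether the response differs from that with the control shRNA was tested as a difference of HMBA effects, shNELFE minus shCTL, in the 5 libraries and the 4 shCTL libraries numbered 2. The shCTL libraries numbered 1 were left out for their measured profiles. Their Pearson's r with number 2 of the same group was 0.777 (DMSO), 0.757 (EPZ-5676), 0.782 (HMBA) and 0.741 (both compounds). The shCTL side was thus chosen too, and each p is scaled to the spread of the 9 chosen libraries. Of 14912 genes 2 (0.0134%) passed at an edgeR adjusted p under 0.05, ADM and ARC, both higher in the difference, and 0 lower (0%). Levels in these sentences are CPM on totals TMM-scaled over the 9 libraries. ADM, which encodes the vasodilator peptide adrenomedullin (ENSG00000148926, chromosome 11, 10304680 to 10307397), stood at 81.5, 84.5 and 75 CPM in shNELFE libraries with HMBA, against 67.2 and 69.8 CPM in those without it. It stood at 17.6 and 16.8 CPM in shCTL libraries with HMBA, against 74.6 and 91.7 CPM in those without it. ADM was thus close with and without HMBA in shNELFE libraries and lower with HMBA in shCTL libraries, a difference of 2.49 (SE 0.19, edgeR adjusted p 0.00218). ARC stood at 353, 341 and 286 CPM in shNELFE libraries with HMBA, against 6.0 and 6.07 CPM in those without it. It stood at 55.3 and 56 CPM in shCTL libraries with HMBA, against 6.95 and 5.69 CPM in those without it. ARC was higher with HMBA under both shRNAs and several times more so with shNELFE, a difference of 2.63 (SE 0.21, edgeR adjusted p 0.00218). Without HMBA the 2 shRNAs were close for both genes.

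The next genes in order did not pass. DUSP2, a nuclear MAP kinase phosphatase, stood at 20.4, 22.8 and 19.9 CPM in shNELFE libraries with HMBA, against 17.2 and 21.8 CPM in those without it. It stood at 7.98 and 6.66 CPM in shCTL libraries with HMBA, against 23.9 and 23.9 CPM in those without it. The difference was 1.81 (SE 0.23, edgeR adjusted p 0.0887). HAS3, a hyaluronan synthase, stood at 82, 48.8 and 47 CPM in shNELFE libraries with HMBA, against 111 and 80.2 CPM in those without it, and at 41.3 and 25.7 CPM in shCTL libraries with HMBA, against 149 and 85.3 CPM in those without it. Its difference was 1.18 (SE 0.17, edgeR adjusted p 0.177). The pseudogene RPL13P5, whose reads may come from RPL13, had 1.97 (SE 0.29, edgeR adjusted p 0.177). An unadjusted p under 0.05 was found for 623 genes, DESeq2 called 17, limma-voom 2, and edgeR with the replicate number as a block 37. The count was 0 without shNELFE DMSO 2, shNELFE EPZ-5676 2 or shCTL EPZ-5676+HMBA 2, 36 without shNELFE EPZ-5676+HMBA 1, 4 without shCTL DMSO 2 and 0 in a fit of all 16 libraries. The plot of levels by shRNA shows the first 4 genes. RPL13 lost its call without shNELFE HMBA 2, shNELFE DMSO 2 or shNELFE EPZ-5676 2.

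**Figure D3:**
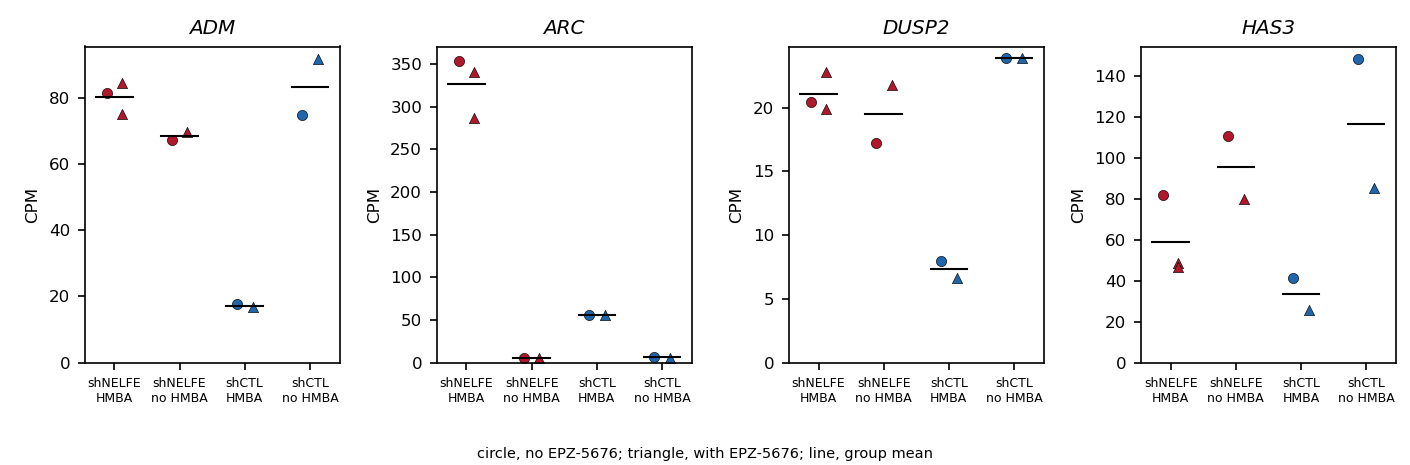
CPM (TMM-scaled over 9 libraries, axes from 0) of the genes with the smallest p for a difference in HMBA effect between shRNAs, with 1 point per library and lines at group means. ADM stands at 75.0 to 84.5 CPM in shNELFE libraries with HMBA and at 17.6 and 16.8 in shCTL libraries with HMBA, and ARC at 286 to 353 against 55.3 and 56.0.

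Calls with the 2 shRNAs overlapped. In the fit of 9 libraries 7844 genes (52.6%) were called in shNELFE and 6684 (44.8%) in shCTL libraries, 3053 higher (20.5%) and 3631 lower (24.3%). Called in both in the same direction were 5763, which is 73.5% of the shNELFE calls and 86.2% of the shCTL calls. Pearson's r of the log2 fold changes across genes was 0.888, a description, since genes are not independent. For the genes and medians that follow, shNELFE values are from the fit of 5 libraries and shCTL values from the fit of 9, with other scaling. MYC had -3.45 and -4.61, CDKN1C 4.13 and 1.55, and CCN2 6.04 and 4.71 in shNELFE and shCTL. JUNB had 2.54 and 1.49, and DUSP1 1.88 and 0.73. Each of these genes had an edgeR adjusted p of 0.297 for the difference in the fit of 9. A difference that does not pass is not shown to be absent. The median over the ribosomal protein genes was 0.64 in shNELFE and 0.40 in shCTL libraries, and over the histone genes 2.61 and 1.95. Without shNELFE EPZ-5676+HMBA 1, which has no counterpart among the shCTL libraries used, the shNELFE medians were 0.55 and 2.66. A difference between these medians was not tested.

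**Figure D4:**
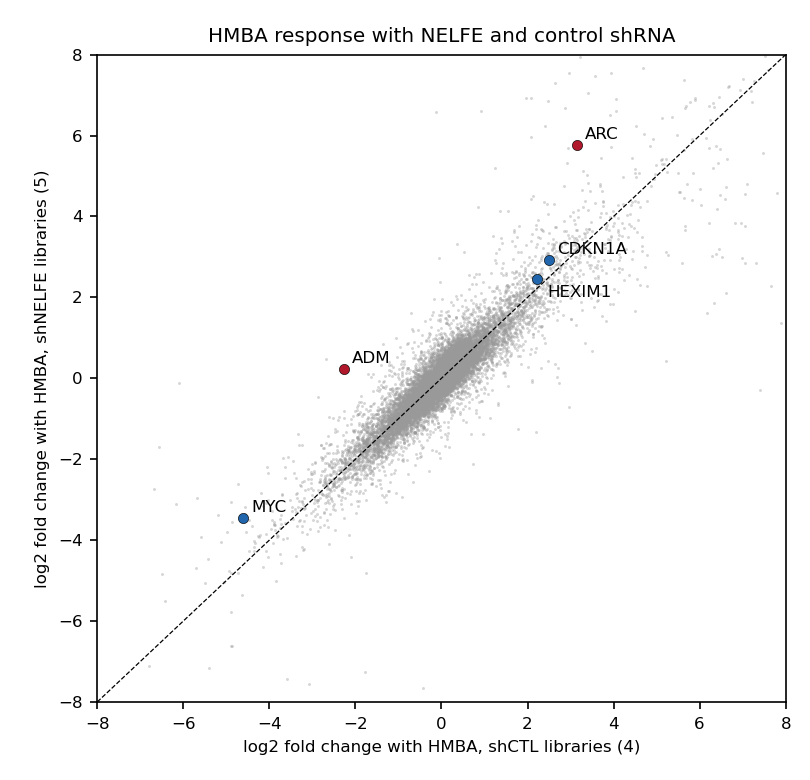
Log2 fold change with HMBA over without in shNELFE libraries (vertical) against that in shCTL libraries (horizontal) for 14437 genes, with 12 more outside the axes and a dashed line of equality. ADM and ARC, in red, are the genes called for a difference and lie above the line, while MYC, HEXIM1 and CDKN1A, in blue, lie nearer to it. HEXIM1 guided the choice of libraries, so its place is no test.

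The response was also compared with and without EPZ-5676 in shNELFE cells, as a departure from additive effects of the compounds. The fit has 1 residual degree of freedom, from the 2 libraries with both compounds. Of 15336 genes 13 passed (0.0848%), 6 higher (0.0391%) and 7 lower (0.0456%), and all 13 had a library with under 10 counts. UTP14C, a retrotransposed copy of a ribosome biogenesis gene, had 75, 31 and 139 counts with HMBA, against 0 with DMSO and 77 with EPZ-5676. Its reads can be shared with the parent gene, and calls at such low counts are uncertain. The next genes named, PLPP3, a lipid phosphatase, and EVA1C, had differences of -1.76 (SE 0.64, edgeR adjusted p 1.0) and -2.17 (SE 0.82, edgeR adjusted p 1.0) and did not pass. An unadjusted p under 0.05 was found for 116 genes, and DESeq2 called 1. Contrasts were also taken 1 at a time, HMBA alone against DMSO and both compounds against EPZ-5676. Of the 5828 called genes, 5827 had the same sign in both. The additive fit that called these genes combines the same contrasts of the same libraries, so this count is no support for agreement. Over all genes tested, called or not, Pearson's r between the contrasts was 0.851, a description only. MYC had -3.19 and -3.65, CDKN1A 2.86 and 2.96, and CCN2 5.85 and 6.18 in those contrasts.

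Features of genes that the choice of libraries did not use were read last, over 12672 protein-coding genes split in 4 bins of 3168. By summed exon length, 22.9% of the shortest bin were higher and 16.3% lower, and 14.7% of the longest were higher and 26.5% lower, with medians of 0.22 and -0.08 on the log2 scale. By gene length from start to end, 23% of the shortest bin were higher and 20.6% lower, and 15.2% of the longest higher and 24.2% lower. The shortest genes were called higher more often than the longest and lower less often, given with no test. In shCTL libraries the medians of the same exon length bins were 0.031 and 0.0096, from the fit of 9 libraries with other scaling. By gene length, the shortest and longest bins had medians of 0.14 and -0.04 in shNELFE libraries. In shCTL libraries, from that fit of 9, they had -0.035 and 0.072, the reverse order. By mean level, 24.5% of the highest bin were higher and 15.1% lower, against 14.9% and 29.9% in the second lowest. In the lowest bin 18% were higher and 18.6% lower, so the shares did not run evenly with level. Among biotypes, 15.3% of 170 processed pseudogenes were higher and 4.71% lower, and 20.1% of 432 lincRNAs higher and 27.8% lower. Length and level also bear on counting depth, and the part of either was not tested.

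**Figure D5:**
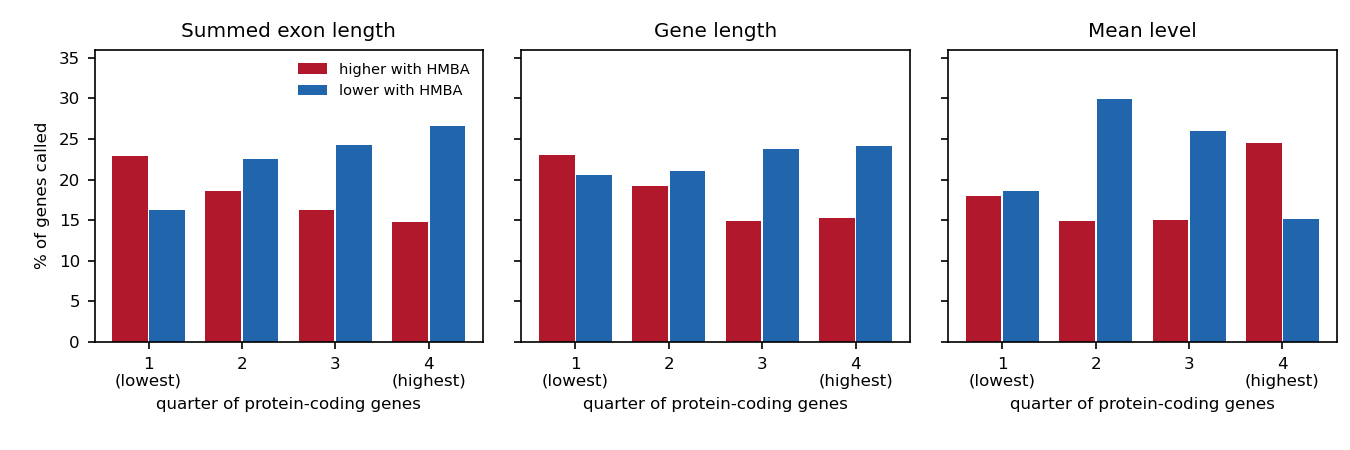
Percent of protein-coding genes called higher (red) and lower (blue) with HMBA, in 4 bins by summed exon length, gene length and mean level, from lowest to highest. By exon length the higher share goes down from 22.9% to 14.7% and the lower share up from 16.3% to 26.5% along the bins.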

How the data were processed

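Libraries were made from poly(A) RNA with a stranded mRNA kit, per the labels' protocols. The deposited values are raw read counts per gene, 1 column for each of 16 libraries. The submitters' processing notes name STAR 2.4.0b, Cufflinks 2.1.1, HTSeq 0.6.1p1, edgeR and hg38, without roles. For the annotation release and the strand setting of the counting, not given in the sources used here, no value is assumed, so antisense and overlapping genes are uncertain. Gene symbols were matched for 60357 of 60676 identifiers, and positions are from GENCODE release 29 for 58503.

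Genes were kept by filterByExpr and tested with edgeR 4.0.16 (quasi-likelihood F-test, TMM scaling, Benjamini-Hochberg threshold 0.05, R 4.3.3) with terms for EPZ-5676 and HMBA, leaving 2 residual degrees of freedom. SE is the log2 fold change divided by the square root of F. Differences were product terms of shRNA and HMBA (9 libraries, 4 residual degrees of freedom) and of EPZ-5676 and HMBA (5 libraries, 1). The fits were tested on simulated data. These were drawn from means and spreads fitted to the same libraries, so they cannot test how the libraries were chosen. The outcome is not reported here. Alternatives were RLE scaling, unscaled totals, no filter, DESeq2 1.42.0, limma-voom (limma 3.58.1), other library sets and each library left out.

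Deviations of libraries from their group means were compared between shNELFE groups by replicate number. Among the DMSO, EPZ-5676 and HMBA groups, whose libraries numbered 1 were left out for their profile, r was 0.736 to 0.878. For pairs with the EPZ-5676+HMBA group, whose libraries resemble each other, r was 0.140 to 0.204. The high values come only from groups that hold a left-out library, so a pairing by number cannot be read from them. The labels do not say what a number marks. On the 5 libraries the block gives the library numbered 1 a term of its own.

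Members and the 47 gene lists were chosen with earlier results of these data known. Named genes are 9 set genes, the 12 largest rises and falls with no overlap and at least 10 CPM in the higher arm, up to 4 called members per list with the largest change, and the 5 smallest p-values per difference with at least 10 CPM in some library. Some items chosen by these rules are not reported here.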

Additional observations from a re-analysis of the deposited data

Results flagged for a closer look

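Differences between HMBA effects are given here for genes that passed their test and met the naming rule. Between shRNAs, shNELFE minus shCTL, the genes called were ADM with 2.49 and ARC with 2.63 on the log2 scale. The mitochondrial share and the leukocyte, endothelial and neural marker sums, given above, also moved with HMBA, and their part in either difference was not tested.

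Between HMBA with and without EPZ-5676 in shNELFE cells, 13 genes passed, of which 3 met the naming rule. ENSG00000279809 had -12.09, with 43, 30 and 1 counts in the libraries with HMBA against 0 and 191 counts in those without it. ENSG00000203812 had 17.25, with 0, 171 and 75 counts against 22 and 0. UTP14C had -9.08, with 75, 31 and 139 counts against 0 and 77. Fitted values of genes with libraries at 0 depend on the prior count and are no measure of size.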

How the results depend on the processing

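The number of genes called for HMBA in shNELFE cells, 5828, was within 1.5 times of that under RLE scaling, unscaled totals, no filter, DESeq2, limma-voom, no term for EPZ-5676, the replicate block (8705) and 9 libraries sharing 1 spread. It was 0 in all 8 libraries labelled shNELFE, with and without the replicate block, 1562 for HMBA alone against DMSO and 2920 for both compounds against EPZ-5676, and 1558 to 8388 with 1 library left out. The difference between shRNAs, 2 genes, became 75 with no filter, 17 with DESeq2, 37 with the replicate block and 0 in all 16 libraries, and 0 to 36 with 1 library left out. The difference with and without EPZ-5676, 13 genes, became 7 on unscaled totals and 1 with DESeq2. Lists with a median above 0 numbered 29 of 47, 21 on unscaled totals and 27 to 30 with 1 library left out. HMBA alone against DMSO is the contrast left without shNELFE EPZ-5676 2. Both compounds against EPZ-5676 is the one left without shNELFE HMBA 2 or shNELFE DMSO 2. These settings repeat each other and are counted more than once in the tally that follows.

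Over 210 named results and 3505 values, 2825 kept direction and side of the threshold, 644 no longer passed, 17 newly passed and 19 reversed. NELFB reversed on unscaled totals (-0.25). In all 8 libraries labelled shNELFE without a block, log2 fold changes reversed to -0.20 for BAMBI, -0.47 for CDH1, -1.17 for HSPA1A, -0.054 for INSIG1, -0.38 for MEPCE and -0.37 for NELFB. With the replicate block they reversed to 0.58 for AREG, 0.80 for BIRC3, 0.97 for CDK6, 1.08 for CDX2, 0.72 for EGFR, 0.57 for EREG, 0.62 for ITGB8, 0.52 for LARP7, -0.12 for MEPCE, -0.29 for NELFB, 1.28 for PHLDA1 and 0.56 for SPRED1. The cause was not tested. Depth limits genes with few counts without HMBA, whose fitted fold changes depend on the prior count.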
